A study of Camponotus floridanus with 48 samples.

Results

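In RNA sequencing of larvae of Camponotus floridanus, the Florida carpenter ant, 104 entries of the deposited quantification stand under a gene symbol in place of a transcript accession and were abundant enough to describe. They were chosen by their name and by a mean of at least 20 estimated reads over 48 larvae, which left 104 of the 348 entries named in this way, among 13878 genes in all. Every one of the 348 is annotated as a pseudogene by RefSeq on assembly Cflo_v7.5, which lists 350 pseudogenes, so by annotation all of these entries are pseudogenes, not most of them. None of the 348 genes also has an entry with an accession, and 46 were at 0 reads in every larva. Just inside the minimum lay LOC112637421 with a mean of 20.6 estimated reads and LOC112637299 with 22.3, and just outside lay LOC105255150 with 19.7 and LOC105255390 with 19.5.

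A pseudogene is a copy of a gene that is judged to be broken or incomplete, for a coding gene in its reading frame. Some pseudogenes are transcribed, and an error in a genome assembly can make an intact gene look like one. A pseudogene that closely resembles an intact gene can share reads with it, and a quantifier then divides those reads between the copies by a statistical model, so the level of each such entry is uncertain. The symbols are locus numbers, and the files and the annotation table used here give no product names. No function is therefore stated for any of them.

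The study asked which molecular differences go with body size in a species whose workers vary widely in size. Each library was made from the polyadenylated RNA of 1 whole animal, a female at the terminal larval stage, and all 48 animals came from colony 30. Larval length ran from 4648.07 to 7598.06 µm, with no treatment and no other group, so length is the only variable that the labels set between the animals. For description the larvae are also given as the 16 shortest (up to 5376.84 µm), the 16 intermediate (5395.82 to 6613.4 µm) and the 16 longest (from 6689.42 µm). The animals share 1 colony, so the spread between them is that of a single colony.

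The libraries held 6608779 to 63171678 estimated reads. The larvae numbered 42 and 43, both among the 16 longest, had 8928680 and 6608779, and every other library had at least 29813896. On the first principal component of expression, 15 libraries stood apart, with scores of at least 27.9 against at most 5.84 in the other 33. They came from 2 of the 16 shortest, 8 of the 16 intermediate and 5 of the 16 longest larvae. The labels name no batch. The counts of rising and falling entries, and the slopes of most entries described, are given with and without these 15 libraries, and the other values cover all 48 larvae unless stated.

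The pseudogene entries together took a median of 2.25% of the estimated reads of a library. The lowest share was 1.79%, in larva No. 27, and the highest was 5.82%, in larva No. 4, with 3.42% in larva No. 6 as the next highest. A pair of entries, LOC109610429 and LOC109610426, held 93.9% to 98.2% of these reads, so the joint share was in effect theirs. The annotation table gives no product for either, and whether their class as pseudogenes is right could not be checked here, so the joint share is that of sequences classed in this way. Without LOC109610429 the median joint share was 0.992%. The other 102 entries together took 0.0694% to 0.146% of a library, with a median of 0.101%, and the 244 entries under the minimum a median of 0.000944%.

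LOC109610429 had a mean of 598476 estimated reads and took 0.982% of the reads in its lowest library, a median of 1.28% and 3.67% in its highest. LOC109610426 had a mean of 404522 estimated reads and took 0.668% to 2.05%, with a median of 0.893%. On the per-length scale of TPM (transcript abundance scaled to a fixed total), they ranked 6th and 8th of the 13878 genes, with mean levels of 13899 and 10039 TPM. The third entry by reads, LOC112638427, had a mean of 4105 estimated reads and ranked 1387th on the TPM scale. Between the second and the third entry the mean number of reads thus dropped 98.5-fold.

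**Figure D1:**
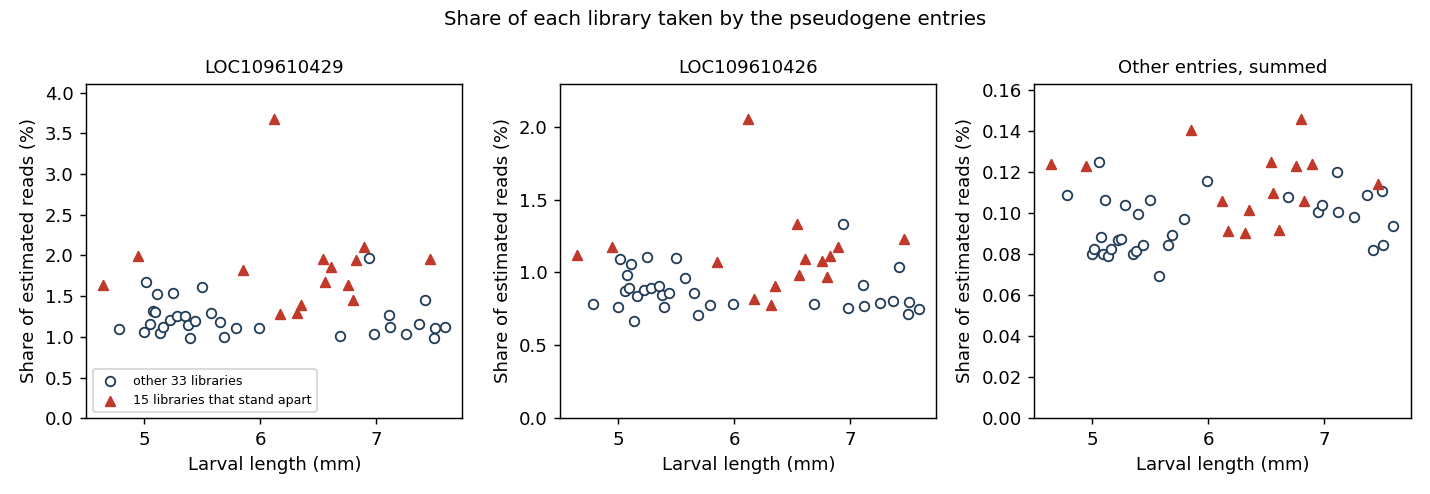
Share of the estimated reads of each library (%, vertical axes from 0) against larval length (mm) for LOC109610429, LOC109610426 and the other 102 pseudogene entries summed, 1 point per larva, with the 15 libraries that stand apart as filled triangles. Larva No. 4, at 3.67% and 2.05%, lies above all others for both dominant entries, and the summed remainder stays between 0.0694% and 0.146%.

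The shares of the dominant pair moved together from larva to larva. The ratio of LOC109610429 to LOC109610426 in reads lay between 1.28 and 1.79, with a median of 1.43, while the share of the first varied from 0.982% to 3.67%. This ratio was higher in the 15 libraries, with a median of 1.66 (1.46 to 1.79) against 1.39 (1.28 to 1.57) in the 33. Pearson's r of their log2 CPM (read counts scaled to a fixed library total with normalization factors) was 0.985 over the 48 larvae, 0.971 over the 33 libraries and 0.984 over the 15. These points share the library and its depth, and r is given as a description.

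Both entries stood higher in the 15 libraries than in most of the other 33, with overlap. LOC109610429 ranged from 13545 to 46425 CPM with a median of 17856 in the 15, and from 8736 to 19381 CPM with a median of 11134 in the 33. LOC109610426 ranged from 9267 to 25921 CPM with a median of 11162 in the 15, and from 6367 to 13103 CPM with a median of 8120 in the 33. The joint share followed the same order, with medians of 3.04% (2.16% to 5.82%) and 2.08% (1.79% to 3.41%). As a share of TPM the medians lay closer, at 2.60% (1.92% to 4.32%) in the 15 and 2.36% (1.99% to 3.27%) in the 33, and the lowest of all 48 values, in larva No. 31, lay among the 15. The 15 libraries were defined from expression as a whole, so these values describe them and carry no test.

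The dominant pair showed no change with length that passed the test. The joint share had medians of 2.25% in the 16 shortest larvae, 2.26% in the 16 intermediate and 2.19% in the 16 longest. Without the 15 libraries the medians were 2.21% (n = 14), 2.07% (n = 8) and 1.98% (n = 11). The order of the 3 medians was not stable, since the longest larvae had 2.44% when larvae No. 42 and No. 43 were left out, and the medians as a share of TPM were 2.40%, 2.33% and 2.48%. In edgeR's quasi-likelihood test of log2 expression on length, with Benjamini-Hochberg adjustment over 10513 genes, LOC109610429 had a slope of 0.15 ± 0.09 log2 per mm (SE, adjusted p = 0.202). Without the 15 libraries its slope was 0.02 ± 0.05 (adjusted p = 0.780). LOC109610426 had slopes of 0.11 ± 0.07 (adjusted p = 0.224) and 0.02 ± 0.05 (adjusted p = 0.770) in the same tests.

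In the gene table of the annotation, a stretch here means a run of genes whose start positions rise from line to line. Names of the assembled sequences were not used, so a stretch may not match an assembled sequence. The dominant pair lies in a stretch of only 4 genes, in the order LOC109610429, LOC109610427, LOC109610426 and LOC109610425. The other two are annotated as protein-coding and are highly abundant as well, with mean levels of 5258 TPM (LOC109610427, rank 22) and 5421 TPM (LOC109610425, rank 21). LOC109610427 followed LOC109610429 with r = 0.971 over the 48 larvae, 0.914 over the 33 libraries and 0.971 over the 15, and LOC109610425 with 0.852, 0.764 and 0.80. Neither coding neighbour passed the test of length, with adjusted p = 0.189 for LOC109610427 and 0.0520 for LOC109610425. The lines of LOC109610429 and LOC109610426 are 1659 and 1605 bases long. Among all genes tested, those most like LOC109610429 over the 48 larvae were LOC109610426, LOC109610427 (r = 0.971), LOC105247978 (r = 0.958), LOC105254224 (r = 0.946) and LOC105247826 (r = 0.942). Over the 33 libraries alone the last 3 had r of 0.867, 0.815 and 0.824. The gene listed just before LOC109610429, the long non-coding RNA LOC112639382 with a median of 0.487 CPM, belongs to another stretch of the table.

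Away from the dominant pair the entries were scarce. Mean levels were below 1 CPM for 21 entries, from 1 to 10 CPM for 51 and from 10 to 200 CPM for 30, and the median entry lay at 3.75 CPM. Reads were assigned in all 48 larvae to 90 of the 104 entries, and 6 entries were at 0 in at least 5 larvae. The quantified sequences were 506 to 6308 bases long, with a median of 1594. They had the full annotated length of the gene for 11 entries and were shorter for 93.

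All 104 entries passed the filter on low counts and were tested for a relation with length. Of these, 30 rose with length (28.8%), against a background of 16.8% of all genes tested, and 5 fell (4.81%), against 13.9%. Calls in either direction made up 35 entries, against a background of 30.8% of all genes. Without the 15 libraries 24 entries rose and 5 fell, against 16.7% and 16.9% of all genes (33.6% in either direction), and 21 of the 30 rising and 4 of the 5 falling entries kept their call. The median slope was 0.09 log2 per mm over the entries and 0.01 over all genes. Slopes were above 0 in 67 of the 104 entries and in 5427 of all 10513 genes. Over the 483 tested genes with only a non-coding accession the median slope was 0.05, with 310 slopes above 0. The 926 genes with a non-coding accession and no coding accession, of which 483 were tested, gave 78 rising and 27 falling, or 16.1% and 5.59%. The sample is a whole larva, so fewer cells that make an RNA and less of that RNA per cell cannot be told apart.

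**Figure D2:**
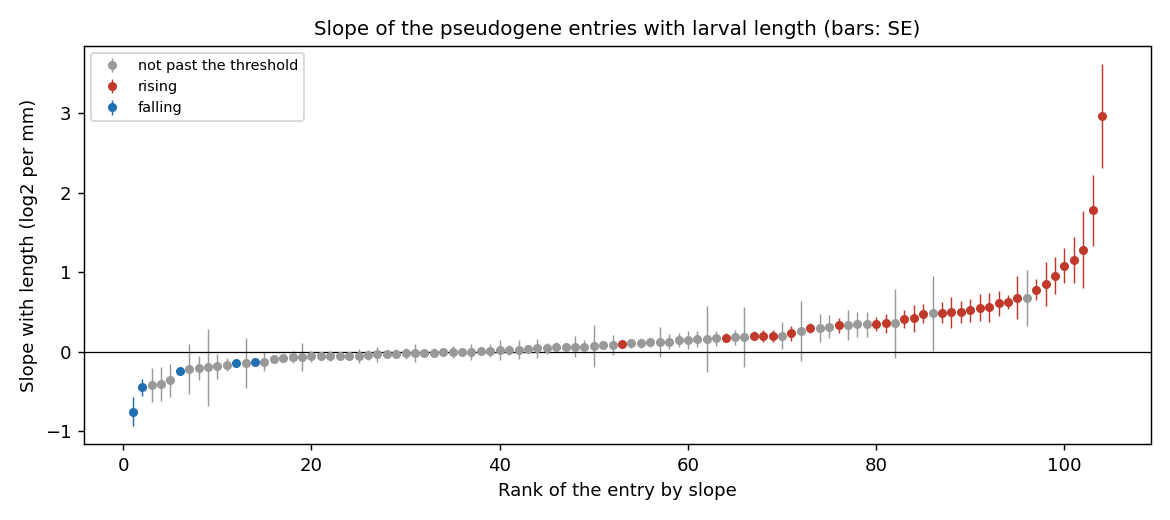
Slope with larval length (log2 per mm, with SE) of the 104 pseudogene entries, ordered by slope, with the 30 rising entries in red, the 5 falling entries in blue and the 69 that did not pass the threshold in grey. The rising slopes run from 0.10 to 2.96 and the falling ones from -0.75 to -0.13.

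The rising entries had slopes from 0.10 to 2.96 log2 per mm with a median of 0.50, and 5 had slopes above 1. In 9 of the 30 the mean level was higher in the 16 intermediate than in the 16 longest larvae. Of the 30, 28 had a higher median in the 15 libraries than in the other 33, as had 78 of all 104 entries (75%) and 50.3% of all genes tested. Of the 5 falling entries 0 did. The rising calls were also counted without the 15 libraries, as above. That fit has only 33 larvae, so the change in calls is not a measure of the part of these libraries alone.

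LOC105248354 had the smallest p of the rising entries. Its level ran from 20.4 to 50.4 CPM in the 16 shortest larvae (median 27.9), from 20.4 to 90.7 in the intermediate (median 50.1) and from 34.9 to 123 in the longest (median 67.6). None of the 16 longest larvae was below the median of the shortest, although the ranges overlapped. The slope was 0.63 ± 0.09 log2 per mm (edgeR, adjusted p = 5.85e-07), and 0.57 ± 0.06 without the 15 libraries (adjusted p = 3.18e-08).

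LOC109609820 had levels of 5.35 to 40.2 CPM in the shortest larvae (median 8.98), 9.81 to 55.6 in the intermediate (median 20.8) and 14.5 to 86.7 in the longest (median 42.1). Here too each of the longest larvae exceeded the median of the shortest. Its slope was 0.78 ± 0.13 (edgeR, adjusted p = 6.91e-06), and it was 0.98 ± 0.15 without the 15 libraries (adjusted p = 5.19e-06). In this entry the highest level, 86.7 CPM, lay in larva No. 41, outside the 15 libraries, which reached 51.1 CPM.

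LOC112638427, the third most abundant entry, ranged from 8.92 to 87.7 CPM in the shortest larvae (median 26.7), from 7.66 to 309 in the intermediate (median 114) and from 48.3 to 389 in the longest (median 129). Its mean rose 5.14-fold from the shortest to the longest larvae, from 32.1 ± 22.9 to 165 ± 105 CPM (SD, n = 16 each). Its slope was 1.08 ± 0.22 (edgeR, adjusted p = 0.000205), and 0.92 ± 0.15 without the 15 libraries (adjusted p = 1.46e-05), in which it ranged from 70.8 to 389 CPM with a median of 226, against 7.66 to 151 with a median of 45.9 in the 33. The coding gene listed after it, LOC105254883, fell with a slope of -0.20 ± 0.03 (adjusted p = 7.63e-06), and the gene before it, LOC105247860, had a slope of 0.08 ± 0.07 (adjusted p = 0.428).

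LOC105247807 had the largest slope of all the entries, 2.96 ± 0.65 log2 per mm (edgeR, adjusted p = 0.000550), and this slope rested on the 15 libraries. Its level ran from 0.423 to 382 CPM in the 15 (median 6.73) and from 0.0158 to 1.89 CPM in the other 33 (median 0.531). The highest levels were 382 CPM in larva No. 32 and 123 CPM in larva No. 3. Without the 15 libraries the slope was 0.49 ± 0.22 and no longer passed the test (adjusted p = 0.0782).

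The remaining entries among the 6 rising with the smallest p changed by less or lay at low levels. LOC112637734 had a median of 4.66 CPM in the shortest and 6.89 in the longest larvae, with 15 of the 16 longest above the median of the shortest, and a slope of 0.29 ± 0.06 (edgeR, adjusted p = 0.000411), and 0.26 ± 0.07 without the 15 libraries (adjusted p = 0.00308). LOC112638917 had medians of 0.662 and 1.24 CPM and reached 14.1 CPM in larva No. 32. Its slope was 0.96 ± 0.23 (adjusted p = 0.00131), and 0.49 ± 0.15 without the 15 libraries (adjusted p = 0.00968).

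Of the 8 most abundant entries, 2 more rose, by small amounts. LOC105256932 had medians of 32.2 CPM in the shortest and 46.6 in the longest larvae and a slope of 0.18 ± 0.06 (edgeR, adjusted p = 0.0138), and 0.24 ± 0.06 without the 15 libraries (adjusted p = 0.00180). LOC105255917 had medians of 42.4 and 46.1 CPM and a slope of 0.10 ± 0.04 (adjusted p = 0.0396), and 0.06 ± 0.04 without the 15 libraries (adjusted p = 0.193). LOC105255858 did not pass, with a slope of 0.05 ± 0.07 (adjusted p = 0.653). Its levels were nonetheless uneven, from 31.8 to 78.3 CPM in the shortest larvae with a median of 38.6, and from 39.1 to 74.6 CPM in the longest with a median of 59.6, so that all 16 of the longest exceeded the shortest larvae's median.

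**Figure D3:**
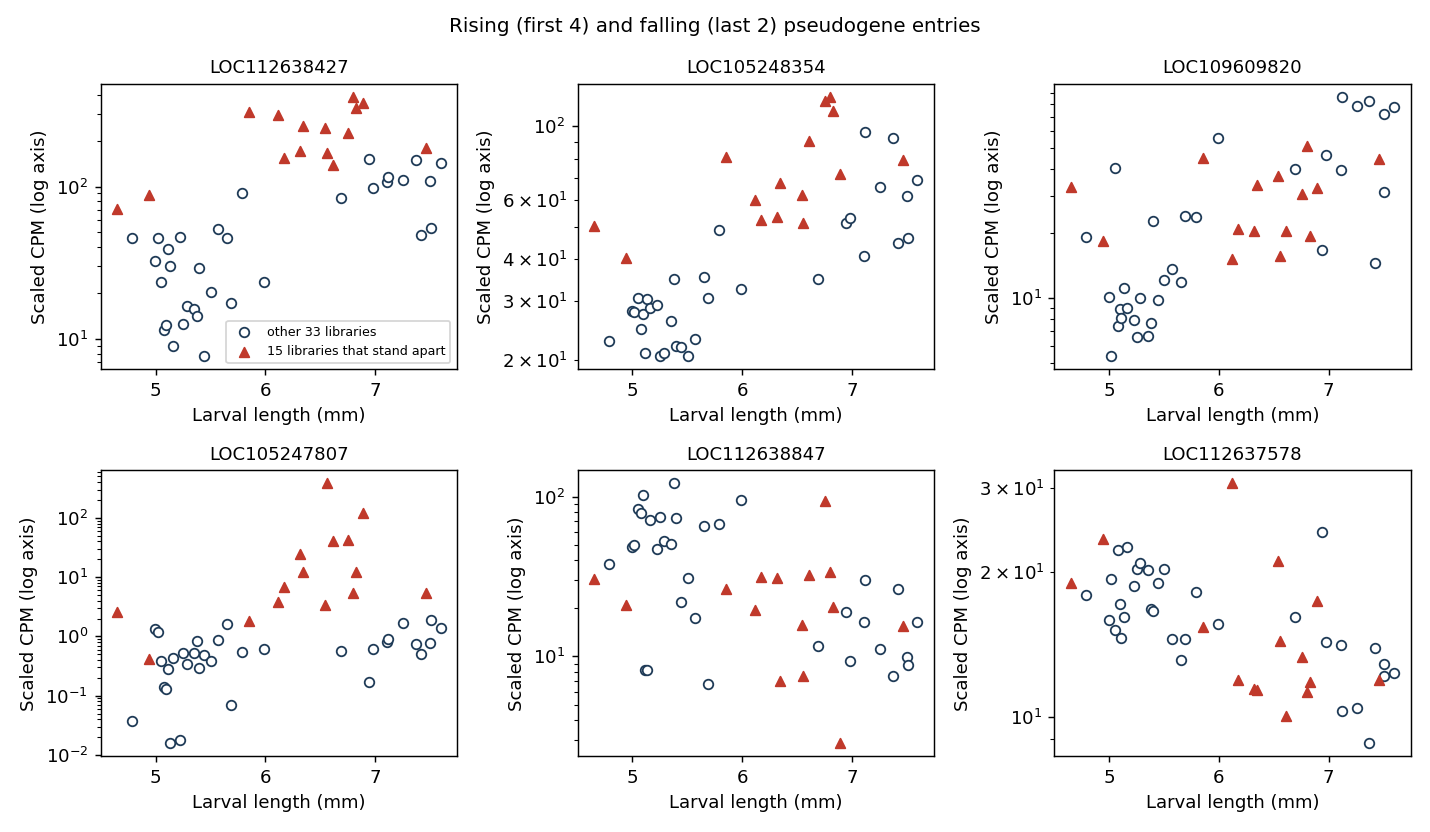
Level in scaled CPM (log axes) against larval length (mm) for 4 rising entries (LOC112638427, LOC105248354, LOC109609820 and LOC105247807) and 2 falling entries (LOC112638847 and LOC112637578), 1 point per larva, with the 15 libraries that stand apart as filled triangles. LOC109609820 climbs within the other 33 libraries, while in LOC105247807 the levels above 1.89 CPM all lie in the 15.

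The 5 falling entries had slopes from -0.75 to -0.13. LOC112638847 fell most, from a median of 50.3 CPM in the shortest larvae (8.20 to 121) through 28.6 (6.77 to 95.6) to 16.0 in the longest (2.86 to 93.8). In 15 of the 16 longest larvae it lay below the median of the shortest. Its slope was -0.75 ± 0.18 (edgeR, adjusted p = 0.00125), and -0.88 ± 0.20 without the 15 libraries (adjusted p = 0.000736). Both genes next to it in the annotation were at or below 0.122 CPM in every larva and did not pass the filter.

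LOC112637578 had medians of 18.9 CPM in the shortest larvae (14.6 to 23.5) and 12.6 in the longest (8.80 to 24.3), with a slope of -0.24 ± 0.05 (edgeR, adjusted p = 0.000586). LOC112637274, the fourth most abundant entry, had medians of 74.0 and 59.5 CPM and a slope of -0.14 ± 0.05 (adjusted p = 0.0221). LOC105258554 had medians of 0.678 and 0.420 CPM and a slope of -0.44 ± 0.11 (adjusted p = 0.00159), with 1 larva at 0 reads. LOC112638502 had medians of 5.89 and 5.04 CPM and a slope of -0.13 ± 0.04 (adjusted p = 0.0158), and -0.08 ± 0.05 without the 15 libraries (adjusted p = 0.226). The other 4 falling entries kept their call there.

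The entries differed widely in how much they varied from larva to larva. The SD of log2 CPM had a median of 0.70 over the entries and ran from 0.18 to 4.29, against a median of 0.41 over all genes tested. The entries were also less abundant, at a median of 3.75 CPM against 22.9. The tested genes with only a non-coding accession, at a median of 1.31 CPM, had a median SD of 0.66. The narrowest spread was that of LOC112639380, which ranged from 4.78 to 8.06 CPM. LOC112638928 (15.4 to 28.4 CPM) and LOC112637425 (7.72 to 15.3 CPM) followed. None of these 3 passed the test of length, with adjusted p of 0.223, 0.0652 and 0.968 in edgeR, although LOC112638928 passed without the 15 libraries, with a slope of 0.11 ± 0.03 (adjusted p = 0.0136).

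At the other end, 4 entries fell into separate low and high levels among the larvae. They were picked after their values were seen, as those with an empty interval of at least 2 log2 units that left at least 5 larvae on each side, which held for 4 of 104 entries (3.85%) against 0.447% of all genes. LOC112638006, with the widest spread, lay at 13.4 to 40.9 CPM in 27 larvae and at no more than 0.392 CPM in the other 21, of which 16 were at 0 reads. The high level occurred in 10 of the 16 shortest, 9 of the 16 intermediate and 8 of the 16 longest larvae, and in 9 of the 15 libraries and 18 of the 33. Its slope with length was -0.20 ± 0.48 (edgeR, adjusted p = 0.801).

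LOC112637404 lay at 0.580 to 3.44 CPM in 27 larvae and at no more than 0.0251 CPM in 21, of which 20 were at 0 reads. LOC112638842 lay at 1.58 to 19.6 CPM in 23 larvae and at no more than 0.0992 CPM in 25. All of its levels above 4.89 CPM lay in the 15 libraries. LOC112639950 lay at 0.932 to 9.01 CPM in 24 larvae and at no more than 0.183 CPM in the other 24. None of the 3 passed the test of length, with adjusted p of 0.810, 0.481 and 0.139 in edgeR. In the 16 shortest, 16 intermediate and 16 longest larvae, LOC112637404 was high in 8, 10 and 9 and LOC112638842 in 9, 8 and 6. LOC112639950 was high in 5, 8 and 11, so more often in the longer larvae, although its slope did not pass. For each of the 4 entries high and low larvae occurred in every range of length.

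The larvae with a high level were not the same from entry to entry. LOC112638006 and LOC112637404 were both high in 15 larvae, the first alone in 12, the second alone in 12 and neither in 9. LOC112638006 and LOC112638842 were both high in 13 larvae, the first alone in 14, the second alone in 10 and neither in 11.

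**Figure D4:**
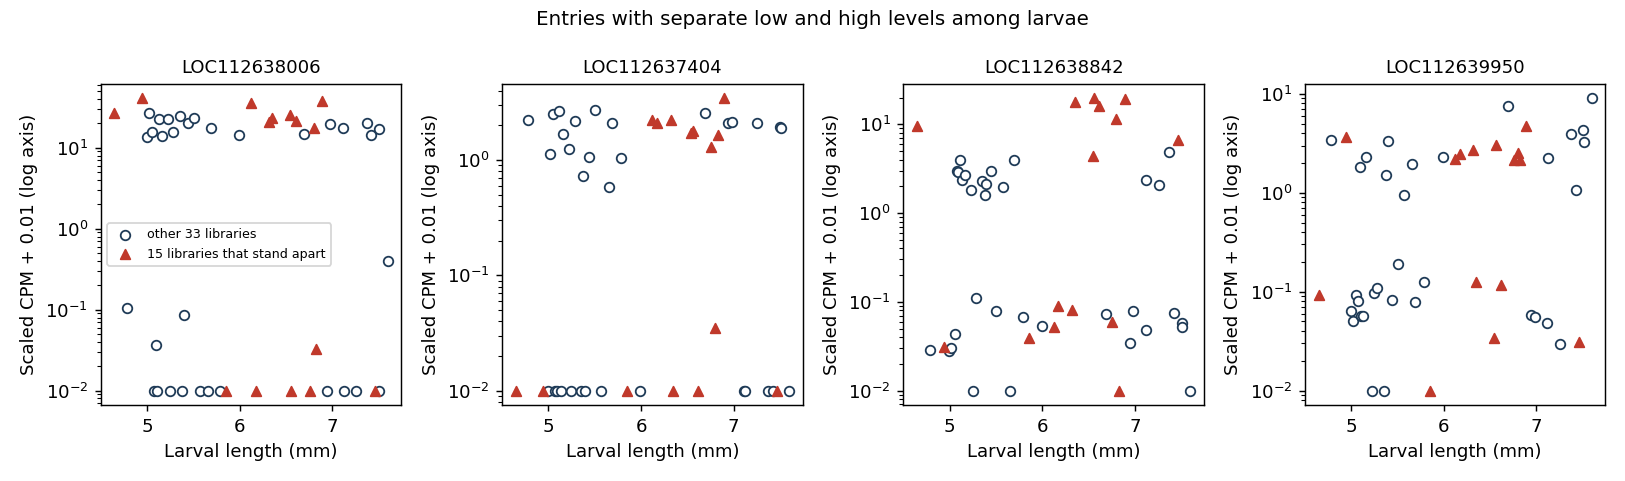
Level in scaled CPM plus 0.01 (log axes) against larval length (mm) for the 4 entries with separate low and high levels, 1 point per larva, with the 15 libraries that stand apart as filled triangles. In each panel the high and the low points both extend along the length axis, with an empty interval of at least 2 log2 units between them.

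A further pair of variable entries lies among ribosomal RNA genes. LOC112638010 and LOC112638012 belong to a stretch of 14 annotated genes of which 9 are rRNA genes and 4 are pseudogenes, and LOC112638010 overlaps the rRNA gene on each side of it. LOC112638010 ranged from 0.146 to 89.5 CPM, with a median of 3.31, and LOC112638012 from 0 to 24.5 CPM, with a median of 0.366 and 9 larvae at 0. They rose and dropped together, with r = 0.960 over the 48 larvae, 0.976 over the 33 libraries and 0.910 over the 15. Neither passed the test of length (edgeR, adjusted p = 0.650 and 0.578). The shared pattern was not particular to the pair. Outside the stretch, the long non-coding RNA LOC112637783 had r = 0.960 with LOC112638010 over the 48 larvae, 0.961 over the 33 libraries and 0.972 over the 15. The coding genes LOC105257113 and LOC112637894 had 0.930 and 0.924 over the 48, and LOC105256302 ran opposite with -0.854. These genes were chosen by likeness after their values were seen.

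The 3 rRNA genes of the stretch that were tested followed LOC112638010 and LOC112638012 less closely. Their r with LOC112638010 over the 48 larvae was 0.664 for LOC112638016, 0.435 for LOC112638022 and 0.699 for LOC112638015. The libraries were made from polyadenylated RNA, and how rRNA reads came to be in them was not tested. LOC112638018, another member of the stretch, varied less, from 1.40 to 17.2 CPM, with r = 0.658. Because the annotated spans overlap and no source used here gives the strand setting of the quantification, reads of overlapping genes may have been assigned to either.

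**Figure D5:**
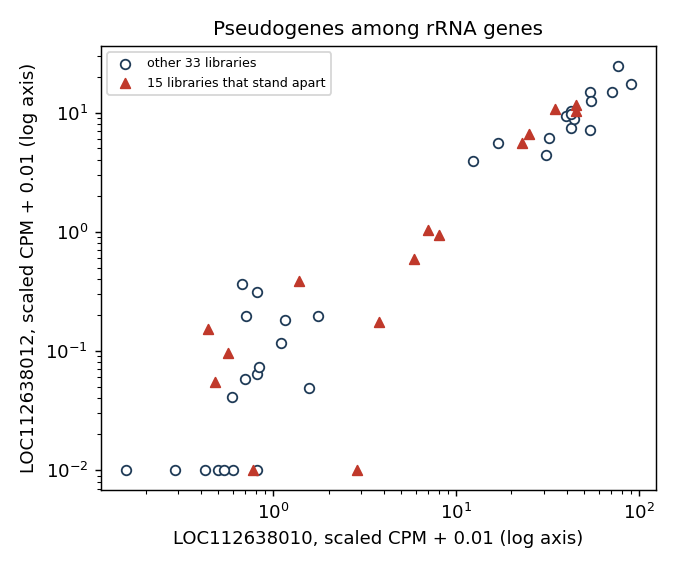
Level of LOC112638012 against that of LOC112638010, both in scaled CPM plus 0.01 on log axes, 1 point per larva, with the 15 libraries that stand apart as filled triangles. Larvae low in one entry are low in the other, over a range from 0.146 to 89.5 CPM in LOC112638010.

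The levels of the entries were also set beside those of the genes next to them in the gene table, within the same stretch as defined above. Some of these neighbours are pseudogene entries of the same set. For 140 distinct pairs of an entry and a tested neighbour the median r over the 48 larvae was 0.346, against 0.106 over 9151 pairs of neighbouring genes in general. Over the 33 libraries the medians were 0.288 and 0.0929, and over the 15 they were 0.217 and 0.0877. In 14 of the 140 pairs r was above 0.8 over the 48 larvae, against 5.30% of all such pairs. Of 38 tested genes next to a rising entry 19 also rose, as did 14 of 99 next to an entry that was not called, beside 16.8% of all genes. Without the 15 libraries these counts were 11 of 29 and 18 of 107, beside 16.7%. In the counts over all 48 larvae, the rising entries LOC105256932 and LOC112638619 each serve as the other's rising neighbour. The rising entries LOC112637734, LOC105256417 and LOC112639185 are among the 14 next to an entry that was not called. The neighbour counts thus partly repeat the calls of the entries, and they were not made without such neighbours. Of 6 tested genes next to a falling entry 1 fell, as did 11 of 99 next to an entry that was not called, beside 13.9% of all genes. The spans of 19 entries overlap that of a neighbour, so part of the reads behind such a pair may be shared.

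The estimated read numbers show which entries had reads divided with other sequences. A quantifier that assigns every fragment of an entry to that entry alone gives it whole numbers. Of the 104 entries, 59 (56.7%) had no whole number in any larva within 0.0005 of a read, leaving out zeros, against 5.32% of 5356 coding genes with a single transcript. A further 12 entries (11.5%) had only whole numbers, against 11.1% of those coding genes, and 33 had some. A single divided fragment is enough to leave a number that is not whole. Both dominant entries belong to the 59, so some of their reads were divided by a model, but how many was not measured. Rising calls were made for 18 of the 59 entries with no whole number, 2 of the 12 with only whole numbers and 10 of the other 33, or 30.5%, 16.7% and 30.3%, beside 16.8% of all genes. Without the 15 libraries the counts were 17, 2 and 5, so the share of the last class fell to 15.2%, beside 16.7% of all genes. Of the entries described above, LOC105248354 had whole numbers in 41 of 48 larvae and LOC105258554 in 47. LOC112637176, an entry not described above, had them in 46. LOC112637176 (1.30 to 27.3 CPM) was named here for its neighbours after its values were seen, and it followed the coding genes on its sides, LOC105252304 with r = 0.970 over the 48 larvae, 0.957 over the 33 libraries and 0.836 over the 15, and LOC105252305 with 0.940, 0.926 and 0.837.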

How the data were processed

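Polyadenylated RNA of 48 whole larvae was sequenced in read pairs, and per the labels' protocols the library kit was directional. Per the file headers, there is 1 deposited table per larva, with expected counts, TPM and effective lengths for 26315 sequences, in the form that Salmon writes. Salmon, Trim Galore 0.6.7, bcl2fastq 2.20, DESeq2 and DESeq appear in the submitters' processing notes without a stated role. No source used here gives the Salmon version, its index and strand setting or the genome build. The authors also deposited a normalized signal for every sequence and larva in a single table. It served for an alternative only, and the number of its columns from other samples is 0.

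Names were matched to genes through RefSeq annotation of Cflo_v7.5, 25811 by accession, 348 by gene symbol and 155 as tRNA names. The 1 name with no gene took at most 0.00124% of a library and was left out. Counts were summed per gene, rounded, filtered with filterByExpr, scaled by TMM and tested on length in mm in all 48 larvae with edgeR 4.0.16 (R 4.3.3), with Benjamini-Hochberg adjustment at 0.05 over all genes. SE was obtained as slope over the square root of F. Printed CPM are scaled by TMM, and spreads and r use log2 CPM with a prior count of 2. Estimated fragments carry no molecular identifiers, and p-values set each slope against the spread between these animals. The scripts were tested on simulated data. Alternatives, among them limma 3.58.1 and DESeq2 1.42.0, are given in the closing section. Python 3.11.15 with pandas 2.3.3 made the tables, and matplotlib 3.10.9 the plots.

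The members, the lists and the alternatives were chosen with earlier results of these data known. Entries were named by abundance (the 8 highest), smallest p (6 rising, and up to 6 falling, of which there were 5), spread (5 widest and 3 narrowest), distance from the minimum of 20 reads, position beside the 3 most abundant entries and likeness to the most abundant one. Other names were chosen after their values were seen. Sequences are not analysed here.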

Additional observations from a re-analysis of the deposited data

How the results depend on the processing

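The number of rising entries lay between 20 (single sequences in place of summed genes) and 33 (without the 2 longest and 2 shortest larvae) under 13 alternatives, against 30, and within 1.5 times of it in each. The number of falling entries lay between 4 and 7 under 12 of them and was 9, against 5, with a covariate for how counts trend with transcript length in a library. Of the 35 called entries 19 kept their call and direction under all 13. The cause of these differences was not tested. The share of all genes that rose is given only for the fit described above (16.8%) and without the 15 libraries (16.7%). Under the other alternatives the counts lack this background, so they cannot show whether the excess of rising entries over all genes held. The median slope over all genes also moved, from 0.0050 log2 per mm in the fit described above to -0.0193 with upper-quartile factors. A minimum mean of 10 or 50 reads left 116 or 74 entries, and a median of at least 20 reads left 95. The median joint share was 2.41% of TPM, 2.28% of TMM-scaled counts and 0.992% without the most abundant entry.

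Among 25 named entries, 297 of 325 slopes kept their direction and call, 17 lost the call, 3 gained it and 8, none of them called in either fit, changed sign. LOC112638842 (0.48 at first) had -0.012 with limma-voom, -0.073 in the authors' normalized table, -0.41 without the 15 libraries, -0.21 with them as a covariate and -0.12 with the length trend. LOC112637299 (0.20) had -0.12 in the authors' table and -0.033 without the 15 libraries, and LOC112637425 (0.00 at 2 decimals) had 0.021 without the 2 longest and 2 shortest larvae. LOC105255917 lost its call under 10 alternatives, with slopes of 0.06 to 0.10. LOC105256932 lost it without larvae No. 42 and No. 43 (0.13, adjusted p = 0.0854 in edgeR) and in the authors' normalized table (0.16, adjusted p = 0.0549 in limma). No paired analysis was possible because the replicate numbers only name larvae of 1 group. The limits are the shared reads of similar sequences, the low levels of most entries and the 2 shallow libraries.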

Other observations

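The larvae with a high level of LOC112638006 differed from the rest in other genes as well. In the 27 larvae where it was at 13.4 CPM or more, LOC112639836 was at 5.15 to 27.1 CPM, LOC112637027 at 13.1 to 59.2, LOC112639856 at 1.40 to 5.53 and LOC105254187 at 0.611 to 3.30. In the other 21 larvae these genes were at no more than 0.116, 0.385, 0.0569 and 0.185 CPM. The separation was not complete for the next gene by likeness, LOC112639180 (r = 0.859). It was at 0 to 2.45 CPM in the 27 larvae and at 0 to 0.0232 CPM in the 21. LOC105253677 showed the opposite pattern, with 0 to 0.168 CPM in the 27 larvae and 11.6 to 33.9 CPM in the 21. These genes were chosen by their likeness to LOC112638006 after the values were seen, so the separation is a description and carries no test.

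LOC112638842 had such a counterpart at low levels. LOC112638840 was at 0.0630 to 0.980 CPM in the 25 larvae where LOC112638842 was low and at 0 to 0.119 CPM in the 23 where it was high, so its ranges overlapped.

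Of 5356 pairs among the 104 entries, the median r over the 48 larvae was 0.147, with 5% of pairs below -0.450 and 5% above 0.627, against a median of -0.001 over pairs of all genes tested. After the dominant pair and the pair among the rRNA genes, the closest were LOC105255858, LOC112638985 and LOC105258346, with r of 0.929, 0.917 and 0.916 in the 3 pairings over the 48 larvae and 0.932, 0.936 and 0.937 over the 33 libraries.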
